A study of Homo sapiens with 18 samples.

Results

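SOCS3 and 8 further genes of IL-6 and STAT signalling (SOCS1, SOCS2, CISH, STAT3, IL6R, IL6ST, JAK1 and CEBPB) were followed by poly(A) RNA-seq in 18 libraries of human hepatoma cells. They are 9 of the 61806 genes of the count table. They were taken by name and chosen by the rise of SOCS3 in APOA4-KO at 48 h, which was already known, so the values of SOCS3 that involve that group and the change of all 9 genes in APOA4-KO from 0 h to 48 h are described without a test. All 9 passed the filter on low counts, which left 19743 genes for testing. The 6 groups of 3 libraries were HepG2 (genotype WT) and APOA4-KO, a HepG2 line edited in APOA4 with CRISPR-Cas9, each before hypoxia at 21% oxygen (0 h) and after 24 h and 48 h at 1% oxygen. Both lines thus share the HepG2 background and differ in the edit and in whatever else arose when single colonies were picked. Hypoxia and time in culture cannot be told apart, since 21% oxygen was sampled at 0 h alone. Nothing in the labels says that the 3 libraries of a group came from separate cultures, so the p-values measure the spread between these libraries.

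In the IL-6 pathway, the cytokine binds its receptor IL6R, the complex recruits the shared signal transducer IL6ST (gp130), and the kinase JAK1 phosphorylates the transcription factor STAT3. In hepatocytes, STAT3 and the C/EBP factor CEBPB drive the genes of the acute phase response. STAT3 and the related STAT5 also induce the SOCS genes, whose small proteins bind JAK kinases or their receptors and shut the signal off. SOCS3 acts on gp130, SOCS1 binds JAK kinases, and CISH and SOCS2 act mainly on receptors that use STAT5.

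Total counts lay between 76481820 and 91604947 per library. In each of the 18 libraries, the values 4, 8 and 12 outnumbered the adjacent values by factors of 2.66 to 3.12, 2.06 to 2.55 and 1.58 to 2.19, so a count need not be a single read pair and small counts are less precise than they look. The hepatocyte product ALB lay between 13810 and 19610 CPM (counts in 1e6 of the library size after TMM scaling) in every library. Of the other hepatocyte markers, APOB was at 8252 to 19130 CPM, TF at 7664 to 14670 CPM and APOA1 at 4382 to 6645 CPM. HNF4A was at 280 to 392 CPM, TTR at 41.2 to 174 CPM and AFP at 128 to 1539 CPM, so some varied far more than ALB. APOA4, the edited gene, was at 6.99 to 8.54 CPM in the 9 APOA4-KO libraries, beside 8.46 to 9.67 CPM in HepG2 at 0 h and 18.9 to 21.7 CPM in HepG2 at 48 h, so APOA4 counts were still present in the edited line. EPO, the erythropoietin gene induced by hypoxia, did not follow the same course in the lines. In HepG2 it was at 5.27 ± 0.835 CPM at 0 h (SD, n = 3), 5.82 ± 0.516 CPM at 24 h (log2 fold change 0.14, SE 0.10, adjusted p = 0.330) and 13.4 ± 0.389 CPM at 48 h (1.35, SE 0.10, adjusted p = 5.8e-09). In APOA4-KO it was at 8.58 ± 0.221 CPM, then 14.4 ± 0.593 CPM (0.75, SE 0.10, adjusted p = 2.2e-06), then 13.1 ± 0.907 CPM (0.60, SE 0.10, adjusted p = 2.9e-05). In bulk RNA, fewer cells with a transcript and less of it per cell cannot be told apart.

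Stretches upstream of SOCS3 and CISH are shown. SOCS3 had the highest rise of the 9 genes. CISH fell in APOA4-KO at 24 h and was the only 1 of the 8 genes with a RefSeq promoter window in which the STAT site TTCNNNGAA was found. SOCS3 (ENSG00000184557) lies on the minus strand at chr17:78356778-78360077 and CISH (ENSG00000114737) on the minus strand at chr3:50606490-50611831 in the GENCODE 29 annotation of GRCh38. Both stretches are from RefSeq on GRCh38.p14, are written 5′ to 3′ along the gene and lie outside annotated exons. The SOCS3 stretch, chr17:78360926-78361175, covers the bases from 849 to 1098 upstream of the GENCODE start and precedes an alternative start of RefSeq. Capitals mark GCGTG, the core of the site bound by hypoxia-inducible factors. The CISH stretch, chr3:50611832-50611907, is the 76 bases directly upstream of the gene, with 2 matches to TTCNNNGAA in capitals.
SOCS3: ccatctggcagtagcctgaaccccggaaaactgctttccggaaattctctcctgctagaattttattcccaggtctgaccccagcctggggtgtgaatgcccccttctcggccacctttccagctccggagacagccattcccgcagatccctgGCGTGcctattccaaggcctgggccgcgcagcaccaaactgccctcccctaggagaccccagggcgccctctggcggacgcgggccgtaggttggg
CISH: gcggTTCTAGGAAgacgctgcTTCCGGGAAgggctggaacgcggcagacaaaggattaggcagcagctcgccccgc

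Within the 250 bases before a RefSeq start, both strands were searched for TTCNNNGAA, ACGTG and GCGTG. CISH held 4 matches to TTCNNNGAA, which occurred in 6.57% of 35116 such windows, and the windows of the other 7 genes held none. Of the 2 SOCS3 windows, 1 lies 849 to 1098 bases upstream of the GENCODE start and 1 within the gene (chr17:78359668-78359917). The bases directly upstream of that start were thus not searched. ACGTG, found in 18.5% of windows, occurred in 1 of the 8 genes (JAK1), and GCGTG, found in 32.2%, in 4 (SOCS3, STAT3, JAK1 and CEBPB). The percentages are per window, while the counts are per gene, and a gene had 1 to 3 windows. A match is only a run of letters, and its absence from a window says nothing of the factor.

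SOCS3, the feedback inhibitor of gp130 signalling, stayed low in HepG2 and climbed step by step in APOA4-KO. In HepG2, the 3 libraries were at 2.53, 1.61 and 1.34 CPM at 0 h, 3.96, 3.02 and 3.33 CPM at 24 h, and 1.66, 1.46 and 1.60 CPM at 48 h. In APOA4-KO, they were at 1.82, 1.60 and 1.67 CPM at 0 h, 5.80, 6.18 and 5.75 CPM at 24 h, and 25.4, 23.8 and 26.5 CPM at 48 h. The 24 h libraries of both lines lay above their own 0 h libraries, HepG2 returned to its starting range by 48 h, and all 3 APOA4-KO libraries at 48 h lay far above every other library. In raw counts, SOCS3 was at 111 to 305 in HepG2 and at 1806 to 1907 in APOA4-KO at 48 h.

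**Figure D1:**
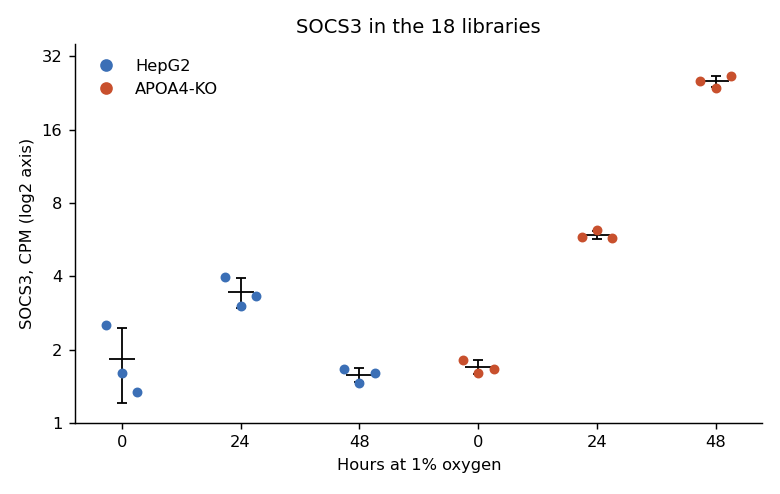
SOCS3 in CPM (log2 axis) against hours at 1% oxygen, with a point for each library, and the mean and SD of 3 libraries as black bars. APOA4-KO (red) goes from 1.70 CPM at 0 h to 25.2 CPM at 48 h, while HepG2 (blue) goes from 1.82 to 3.44 and back to 1.57 CPM.

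By 24 h, SOCS3 had risen in HepG2 by 0.91 on the log2 scale (SE 0.17, edgeR adjusted p = 3.1e-04) and in APOA4-KO by 1.80 (SE 0.17, adjusted p = 3.6e-08). The rise in APOA4-KO was the larger, with a difference of 0.89 between the lines (SE 0.24, adjusted p = 0.006). Between the lines, SOCS3 did not differ detectably at 0 h (log2 fold change -0.11, SE 0.17, adjusted p = 0.722) and was higher in APOA4-KO at 24 h by 0.78 (SE 0.16, adjusted p = 4.4e-04). HepG2 at 48 h was not distinguishable from 0 h (-0.21, SE 0.17, adjusted p = 0.433). For the group that the choice of genes used, the values are 25.2 ± 1.36 CPM in APOA4-KO at 48 h (SD, n = 3), 1.57 ± 0.102 CPM in HepG2 at 48 h and 1.70 ± 0.111 CPM in APOA4-KO at 0 h, or 16.04-fold and 14.9-fold.

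In order of its level, SOCS3 was highest in APOA4-KO at 48 h, then in APOA4-KO at 24 h and in HepG2 at 24 h, with no overlap between neighbours down to that point. The remaining groups, HepG2 and APOA4-KO at 0 h and HepG2 at 48 h, overlapped. Per length of transcript, SOCS3 in APOA4-KO moved from below SOCS1 and CISH to above both. At 0 h it was at 0.627 ± 0.0404 FPKM (SD, n = 3), beside 3.44 ± 1.23 FPKM for SOCS1, 0.777 ± 0.0737 FPKM for CISH and 0.233 ± 0.105 FPKM for SOCS2. At 48 h it was at 8.40 ± 0.452 FPKM, beside 1.54 ± 0.589, 0.680 ± 0.165 and 0.113 ± 0.0451 FPKM.

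IL6R (ENSG00000160712, chr1:154405193-154469450), the receptor chain that binds IL-6, moved in opposite directions in the lines by 48 h. Its libraries were at 21.1, 18.8 and 20.03 CPM in HepG2 at 0 h, 17.4, 16.5 and 18.1 CPM at 24 h, and 15.9, 14.8 and 17.0 CPM at 48 h. In APOA4-KO they were at 23.8, 21.8 and 23.7 CPM at 0 h, 23.8, 22.9 and 21.4 CPM at 24 h, and 41.7, 42.5 and 45.9 CPM at 48 h. The lines were closest at 0 h and did not overlap at any time, and APOA4-KO at 48 h stood above all other groups. Relative to HepG2, IL6R in APOA4-KO was up by 0.39 on the log2 scale at 24 h (SE 0.06, adjusted p = 4.2e-05) and 1.45 at 48 h (SE 0.06, adjusted p = 7.0e-13). In HepG2 it fell by 0.33 on the log2 scale to 48 h (SE 0.06, adjusted p = 6.6e-04), and the change to 48 h differed between the lines by 1.23 (SE 0.09, adjusted p = 2.6e-09). The lower values of HepG2 at 24 h than at 0 h (-0.20, SE 0.06, adjusted p = 0.022) and the higher level of APOA4-KO at 0 h (0.21, SE 0.06, adjusted p = 0.017) were smaller. The call for HepG2 at 24 h was lost without HepG2 0 h replicate 1 (adjusted p = 0.136) or 3 (0.064) or HepG2 24 h replicate 2 (0.103), and the call at 0 h without HepG2 0 h replicate 2 (0.106) or 3 (0.051) or APOA4-KO 0 h replicate 1 (0.073) or 3 (0.076).

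IL6ST (ENSG00000134352, chr5:55935095-55994993), the signal chain shared by the IL-6 family, was highest in APOA4-KO at 24 h. In HepG2 its libraries were at 115, 114 and 117 CPM at 0 h, 108, 103 and 115 CPM at 24 h, and 136, 135 and 143 CPM at 48 h. In APOA4-KO they were at 127, 131 and 132 CPM, then 190, 196 and 187 CPM, then 180, 165 and 176 CPM. At each time all 3 APOA4-KO libraries lay above all 3 HepG2 libraries, with the widest gap at 24 h. The log2 fold change between the lines was 0.17 at 0 h (SE 0.04, adjusted p = 0.002), 0.81 at 24 h (SE 0.04, adjusted p = 3.0e-12) and 0.34 at 48 h (SE 0.04, adjusted p = 5.4e-07). HepG2 rose by 0.26 to 48 h (SE 0.04, adjusted p = 5.2e-05), and APOA4-KO by 0.55 to 24 h (SE 0.04, adjusted p = 7.3e-10). The change to 24 h was larger in APOA4-KO by 0.64 (SE 0.055, adjusted p = 4.7e-08). The corresponding difference at 48 h was 0.16 (SE 0.055, adjusted p = 0.028), but it was -0.01 when libraries were scaled by their total alone (adjusted p = 0.915). Its call was also lost without HepG2 0 h replicate 1 or 3, HepG2 48 h replicate 1 or 2, APOA4-KO 0 h replicate 1, or APOA4-KO 48 h replicate 1 or 3, with values from 0.14 to 0.20 over all refits without a library. For HepG2 at 24 h, the change of -0.09 (SE 0.04, adjusted p = 0.104) became a call without HepG2 24 h replicate 3 (-0.13, adjusted p = 0.014). That change was also called with library totals alone (-0.16, adjusted p = 0.004), log2(FPKM + 1) (-0.15, adjusted p = 0.015) and log2(FPKM + 0.1) (-0.16, adjusted p = 0.014). The other 4 settings left it uncalled.

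JAK1 (ENSG00000162434, chr1:64833229-64966504), the main kinase on gp130, started lower in APOA4-KO and ended higher. In HepG2 it was at 70.1, 73.0 and 70.2 CPM at 0 h, 60.0, 59.9 and 64.2 CPM at 24 h, and 73.8, 74.3 and 74.6 CPM at 48 h. In APOA4-KO it was at 60.6, 62.6 and 63.1 CPM, then 89.4, 91.97 and 90.3 CPM, then 90.5, 98.4 and 96.9 CPM. The libraries of the lines did not overlap at any time, and their order reversed between 0 h and 24 h. Relative to HepG2, the log2 fold change was -0.20 at 0 h (SE 0.04, adjusted p = 3.7e-04), 0.56 at 24 h (SE 0.04, adjusted p = 2.1e-10) and 0.36 at 48 h (SE 0.04, adjusted p = 8.5e-08). By 24 h HepG2 had fallen by 0.21 (SE 0.04, adjusted p = 1.5e-04) and APOA4-KO had risen by 0.54 (SE 0.04, adjusted p = 3.5e-10). The changes differed between the lines by 0.76 at 24 h (SE 0.05, adjusted p = 2.6e-09) and 0.56 at 48 h (SE 0.05, adjusted p = 6.7e-08).

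STAT3 (ENSG00000168610, chr17:42313324-42388568), the transcription factor of the pathway, changed little in size but in opposite directions. In HepG2 it was at 313, 306 and 319 CPM at 0 h, 264, 261 and 261 CPM at 24 h, and 266, 264 and 265 CPM at 48 h. In APOA4-KO it was at 237, 228 and 236 CPM, then 274, 280 and 282 CPM, then 332, 331 and 346 CPM. HepG2 had its highest libraries at 0 h and APOA4-KO its lowest, with no overlap of the lines at any time. The log2 fold change between the lines went from -0.42 at 0 h (SE 0.02, adjusted p = 6.0e-11) through 0.09 at 24 h (SE 0.02, adjusted p = 0.003) to 0.34 at 48 h (SE 0.02, adjusted p = 2.0e-10). In HepG2, STAT3 fell by 0.26 to 24 h (SE 0.02, adjusted p = 5.6e-08) and by 0.24 to 48 h (SE 0.02, adjusted p = 2.0e-07). In APOA4-KO it rose by 0.26 to 24 h (SE 0.02, adjusted p = 1.9e-08). The differences between these changes were 0.51 at 24 h (SE 0.03, adjusted p = 9.4e-10) and 0.77 at 48 h (SE 0.03, adjusted p = 1.2e-12).

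CEBPB (ENSG00000172216, chr20:50190734-50192689), a C/EBP factor that works with STAT3 on acute phase genes, dropped in HepG2 at 48 h. Its libraries in HepG2 were at 20.6, 26.5 and 19.7 CPM at 0 h, 24.9, 27.8 and 21.2 CPM at 24 h, and 8.65, 8.27 and 12.6 CPM at 48 h. In APOA4-KO they were at 15.9, 26.2 and 27.5 CPM, then 21.1, 33.1 and 48.3 CPM, then 37.6, 21.4 and 17.6 CPM. HepG2 at 48 h lay below every other group, and the APOA4-KO groups overlapped one another, with wide gaps between their own libraries. The fall in HepG2 was -1.18 (SE 0.30, adjusted p = 0.005), and at 48 h APOA4-KO was higher by 1.37 (SE 0.30, adjusted p = 6.6e-04). The change to 48 h differed between the lines by 1.32 (SE 0.41, adjusted p = 0.017), or by 0.93 without APOA4-KO 48 h replicate 1 (adjusted p = 0.066). At 24 h the line difference was 0.47 (SE 0.29, adjusted p = 0.199) and the change in APOA4-KO 0.56 (SE 0.29, adjusted p = 0.131). Both passed the limit without APOA4-KO 24 h replicate 1, at 0.74 (adjusted p = 0.037) and 0.83 (adjusted p = 0.021). Of the exon bases of CEBPB, 11.8% overlap the antisense gene CEBPB-AS1, which had 0 to 40 counts.

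**Figure D2:**
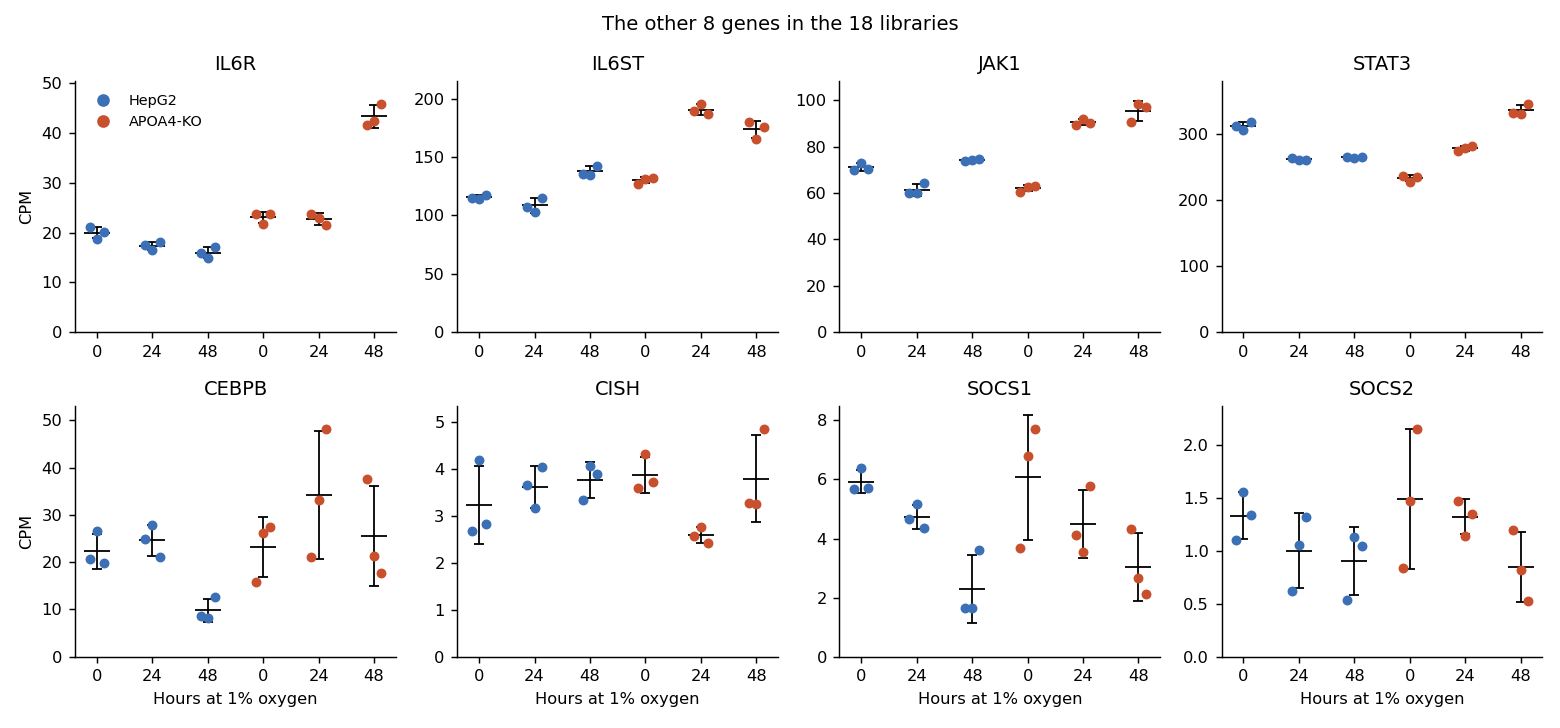
CPM of the 8 genes other than SOCS3 against hours at 1% oxygen, with a point for each library (blue HepG2, red APOA4-KO) and the mean and SD of 3 libraries as black bars, each axis starting at 0. IL6R at 48 h stands at 41.7 to 45.9 CPM in APOA4-KO against 14.8 to 17.0 CPM in HepG2, and STAT3 and JAK1 are lower in APOA4-KO at 0 h and higher at 48 h, while CEBPB, SOCS1 and SOCS2 scatter widely within groups.

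The other SOCS family genes did not share the course of SOCS3. SOCS1 (ENSG00000185338, chr16:11254405-11256200), which inhibits JAK kinases directly, was at 5.68, 6.39 and 5.71 CPM in HepG2 at 0 h, 4.65, 5.17 and 4.36 CPM at 24 h, and 1.64, 1.64 and 3.62 CPM at 48 h. In APOA4-KO it was at 3.67, 6.80 and 7.72 CPM, then 4.13, 3.56 and 5.77 CPM, then 4.33, 2.68 and 2.11 CPM. The 3 HepG2 groups did not overlap and went down with time, while the APOA4-KO groups overlapped. SOCS1 fell in HepG2 to 48 h by 1.37 on the log2 scale (SE 0.32, adjusted p = 0.003). No other comparison in which SOCS1 was tested passed the limit, and its change in APOA4-KO to 48 h, which was not tested, was -0.997 (SE 0.32). At 48 h the lines differed by 0.40 (SE 0.32, adjusted p = 0.329), a value that reached 0.89 without HepG2 48 h replicate 3 (adjusted p = 0.025).

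CISH, an inhibitor of cytokine receptors that signal through STAT5, was lowest in APOA4-KO at 24 h. Its libraries were at 2.69, 4.20 and 2.83 CPM in HepG2 at 0 h, 3.66, 3.16 and 4.05 CPM at 24 h, and 3.35, 4.07 and 3.89 CPM at 48 h. In APOA4-KO they were at 3.61, 4.31 and 3.72 CPM, then 2.58, 2.76 and 2.42 CPM, then 3.28, 3.26 and 4.87 CPM. At 24 h the lines did not overlap, and at 0 h and 48 h they did. CISH fell in APOA4-KO to 24 h by 0.58 on the log2 scale (SE 0.19, adjusted p = 0.017). At 24 h it lay lower in APOA4-KO than in HepG2, at a log2 fold change of -0.49 (SE 0.19, adjusted p = 0.042), and its change differed between the lines by -0.75 (SE 0.27, adjusted p = 0.039). These calls were weak. The fall in APOA4-KO was lost without APOA4-KO 0 h replicate 2 (adjusted p = 0.085) or APOA4-KO 24 h replicate 3 (0.071). The line difference lost its call in 12 of 18 refits that left out a library, with adjusted p up to 0.152: those without HepG2 0 h replicate 3, HepG2 24 h replicate 1 or 3, or any library of HepG2 48 h, APOA4-KO 0 h or APOA4-KO 24 h. The difference in change lost it in 13, namely these and the refit without HepG2 0 h replicate 1, with adjusted p up to 0.117. CISH shares 4.3% of its exon bases with MAPKAPK3 on the opposite strand, which had 4153 to 9227 counts against 196 to 388 for CISH. Whether strand was used in the counting is not given in the sources used here, so reads of the shared bases cannot be assigned.

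SOCS2 (ENSG00000120833, chr12:93569814-93583487), an inhibitor of growth hormone signalling, was the lowest of the 9 genes at 0.528 to 2.15 CPM. It passed the limit in none of the 8 comparisons tested, in which its log2 fold changes lay between -0.56 and 0.40 with adjusted p of 0.336 or more. The groups of SOCS2 overlapped in every pair of line or time that was compared.

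Before hypoxia, 4 of 9 passed an adjusted p of 0.05 between the lines: IL6R and IL6ST were higher in APOA4-KO and STAT3 and JAK1 lower. Among all tested genes, 30.5% were called at 0 h, 12.9% higher and 17.6% lower. At 24 h, 6 of 9 differed, with IL6R, IL6ST, JAK1, STAT3 and SOCS3 higher and CISH lower, against 48.1% of all genes, 23.6% higher and 24.6% lower. At 48 h, without SOCS3, 5 of 8 were higher (IL6R, IL6ST, JAK1, STAT3 and CEBPB) and none lower, against 50.8% of all genes, 23.5% higher and 27.3% lower. All 8 fitted values at 48 h outside SOCS3 were positive but for SOCS2, at -0.09 (SE 0.38, adjusted p = 0.877).

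**Figure D3:**
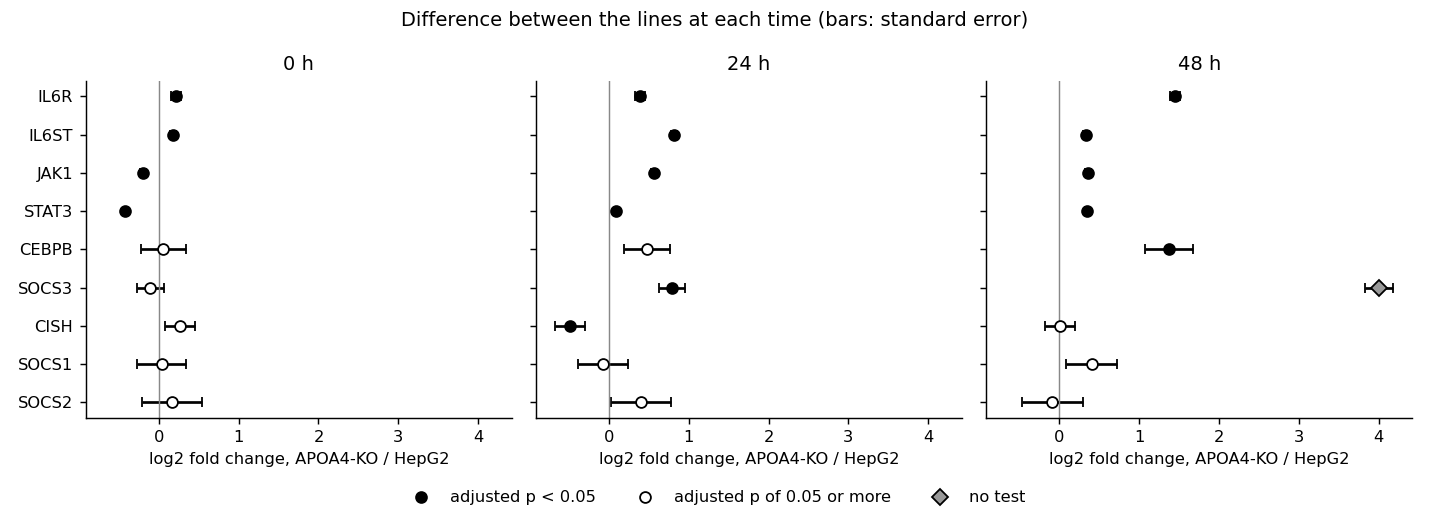
Log2 fold change between the lines (APOA4-KO over HepG2) for the 9 genes, by hours at 1% oxygen (0, 24 and 48), with the standard error as bars; filled circles have an adjusted p under 0.05, open circles do not, and the grey diamond of SOCS3 at 48 h was not tested. STAT3 and JAK1 cross from -0.42 and -0.20 at 0 h to 0.34 and 0.36 at 48 h, and IL6R goes from 0.21 to 1.45.

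Within HepG2, 4 of 9 genes changed by 24 h, with SOCS3 higher and IL6R, JAK1 and STAT3 lower, beside 29.6% of all genes, 11.4% higher and 18.3% lower. By 48 h, 5 of 9 had changed, with IL6ST higher and SOCS1, STAT3, IL6R and CEBPB lower, beside 27.7% of all genes, 13.1% higher and 14.6% lower. In APOA4-KO, 5 of 9 changed by 24 h, with SOCS3, STAT3, IL6ST and JAK1 higher and CISH lower, beside 44.4% of all genes, 21.5% higher and 22.8% lower. From 0 h to 48 h in APOA4-KO, the comparison used to choose the genes, the log2 fold changes were 3.90 for SOCS3, 0.91 for IL6R, 0.62 for JAK1, 0.53 for STAT3, 0.42 for IL6ST, 0.14 for CEBPB, -0.03 for CISH, -0.81 for SOCS2 and -0.997 for SOCS1. Of all genes tested, 49.9% were called in that comparison, 23.9% higher and 25.9% lower. No calls are counted for the 9 genes there.

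The changes themselves differed between the lines for 5 of 9 genes at 24 h, with SOCS3, STAT3, IL6ST and JAK1 higher in APOA4-KO and CISH lower, beside 32.2% of all genes, 16.8% higher and 15.4% lower. At 48 h they differed for 5 of the 8 genes other than SOCS3, all higher in APOA4-KO (STAT3, IL6R, IL6ST, JAK1 and CEBPB), beside 36.4% of all genes, 18.6% higher and 17.8% lower. The test at 48 h includes the change from 0 h to 48 h in APOA4-KO, which by itself is described without a test. At 48 h SOCS3 itself had a difference of 4.11 (SE 0.24), which is a description. Scaling by library totals alone changed the split of all calls at some of these comparisons: from 2244 higher and 3606 lower to 1732 and 4875 in HepG2 at 24 h, from 4727 and 5116 to 3499 and 6686 in APOA4-KO at 48 h, and from 3665 and 3513 to 2492 and 5266 for the difference in change at 48 h. With that scaling, 4 of the 8 genes were called for the difference in change at 48 h, IL6ST being lost.

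Of 74 other genes of the pathway, in 7 roles, 70 were tested. OSM and CRP had no count in any library, and CNTFR and GHR had at most 10. At 0 h, 19 were higher and 19 lower in APOA4-KO, with a median log2 fold change of 0.03 against -0.01 for all genes. Of all genes, 12.9% were called higher and 17.6% lower before hypoxia. At 24 h, 32 of the list were higher and 16 lower (median 0.31 against 0.01), beside 23.6% and 24.6% of all genes. At 48 h, 40 were higher and 16 lower (median 0.39 against -0.04), beside 23.5% and 27.3% of all genes. Scaling by library totals alone, which shifted the median of all genes by -0.15 at 48 h, gave 33 higher and 21 lower for the list, and log2(FPKM + 1) gave 31 and 20. Within HepG2, 22 rose and 17 fell by 24 h (20 and 23 with library totals alone), and 16 rose and 20 fell by 48 h. Within APOA4-KO, 33 rose and 13 fell by 24 h, and 36 rose and 18 fell by 48 h. The change differed between the lines for 40 genes at 24 h, 30 of them upwards in APOA4-KO, and for 29 upwards and 14 downwards at 48 h. Of all genes, 29.6% were called in HepG2 at 24 h and 27.7% at 48 h, and 44.4% and 49.9% in APOA4-KO. For the difference in change, the shares were 32.2% at 24 h and 36.4% at 48 h. Over all genes, the calls between the lines at 48 h went from 4641 higher and 5391 lower to 3601 and 6788 with library totals alone.

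The regulators known to respond to STAT3 had the highest median of the 7 roles at 48 h, with 8 of 10 higher in APOA4-KO, 1 lower and a median log2 fold change of 1.54. Of all genes, 23.5% were higher and 27.3% lower at 48 h, with a median of -0.04. PIM1, a serine/threonine kinase induced by STAT factors, was at 658 ± 4.65 CPM in APOA4-KO (SD, n = 3) against 42.8 ± 0.937 CPM in HepG2 (log2 fold change 3.94, SE 0.03, adjusted p = 1.1e-22). FOS, an AP-1 subunit at 1.47 ± 0.612 CPM in HepG2, was higher as well (3.77, SE 0.27, adjusted p = 5.5e-10). IRF1, an interferon regulatory factor, was the 1 that was lower, at 11.4 ± 1.11 against 22.7 ± 0.666 CPM (-1.0005, SE 0.07, adjusted p = 5.7e-10). At 24 h, 4 of the 10 were higher and 3 lower, beside 23.6% and 24.6% of all genes. Among them were FOS (2.26, SE 0.25, adjusted p = 3.7e-07) and BCL6, a transcriptional repressor (0.84, SE 0.05, adjusted p = 1.9e-10), against IRF1 (-0.80, SE 0.07, adjusted p = 1.4e-08) and JUNB, another AP-1 subunit (-0.34, SE 0.08, adjusted p = 8.8e-04). JUNB was higher in APOA4-KO at 48 h (2.02, SE 0.08, adjusted p = 8.5e-14). Before hypoxia, PIM1 was higher in APOA4-KO (0.54, SE 0.03, adjusted p = 1.4e-10) and IRF1 lower (-0.67, SE 0.07, adjusted p = 4.3e-07). In HepG2 from 0 h to 48 h, 1 rose, the apoptosis inhibitor MCL1 (0.13, SE 0.03, adjusted p = 0.006), and 3 fell, among them IRF1 (-0.39, SE 0.07, adjusted p = 2.2e-04) and PIM1 (-0.32, SE 0.03, adjusted p = 2.1e-07). Of all genes, 13.1% rose and 14.6% fell in that comparison.

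The other C/EBP factors split at 48 h. CEBPD, which is induced in the acute phase, was at 39.5 ± 4.74 CPM in APOA4-KO against 8.91 ± 1.04 CPM in HepG2 (log2 fold change 2.15, SE 0.14, adjusted p = 2.7e-10), and CEBPG was higher as well (0.53, SE 0.05, adjusted p = 8.9e-08). CEBPA, a factor of hepatocyte differentiation, was lower at 65.0 ± 0.903 against 179 ± 6.61 CPM (-1.46, SE 0.04, adjusted p = 2.9e-15). At 24 h, CEBPD was higher (0.65, SE 0.14, adjusted p = 6.4e-04) and CEBPA lower (-0.85, SE 0.04, adjusted p = 9.7e-12). Before hypoxia, CEBPD did not differ detectably (0.06, SE 0.14, adjusted p = 0.819), while CEBPA was lower in APOA4-KO (-0.61, SE 0.04, adjusted p = 2.9e-09).

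Among 17 acute phase proteins tested, 9 were higher and 4 lower in APOA4-KO at 48 h, beside 23.5% and 27.3% of all genes. At 24 h, 9 were higher and 3 lower, beside 23.6% and 24.6% of all genes. FGB, the fibrinogen beta chain, was at 834 ± 15.5 CPM in APOA4-KO at 24 h against 124 ± 5.90 CPM in HepG2 (log2 fold change 2.75, SE 0.03, adjusted p = 2.1e-21), and at 267 ± 4.68 against 105 ± 1.53 CPM at 48 h (1.35, SE 0.03, adjusted p = 1.2e-17). The gap in FGB was present before hypoxia, at 294 against 101 CPM (1.55, SE 0.03, adjusted p = 1.7e-17). HAMP, which encodes the iron hormone hepcidin, was lower in APOA4-KO at 0 h (-1.48, SE 0.16, adjusted p = 7.7e-07) and higher at 48 h (1.28, SE 0.15, adjusted p = 8.3e-07). The heme carrier HPX (-1.36, SE 0.07, adjusted p = 8.9e-12) and SAA4, the constitutive serum amyloid (-1.08, SE 0.05, adjusted p = 2.2e-12), were lower at 48 h. Both had been higher in APOA4-KO at 24 h, HPX by 0.73 (SE 0.07, adjusted p = 6.0e-08) and SAA4 by 0.56 (SE 0.05, adjusted p = 2.5e-08), and HPX was lower at 0 h (-0.85, SE 0.07, adjusted p = 2.3e-08). At 24 h the acid glycoproteins ORM1 (-0.44, SE 0.04, adjusted p = 1.6e-08) and ORM2 (-0.49, SE 0.03, adjusted p = 4.3e-10) were lower, though as near-identical copies they may share reads. In HepG2, the copper carrier CP rose from 250 ± 4.95 CPM at 0 h to 528 ± 8.25 CPM at 48 h (1.08, SE 0.03, adjusted p = 1.3e-15), and A2M fell by 0.25 on the log2 scale (SE 0.01, adjusted p = 8.7e-11).

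**Figure D4:**
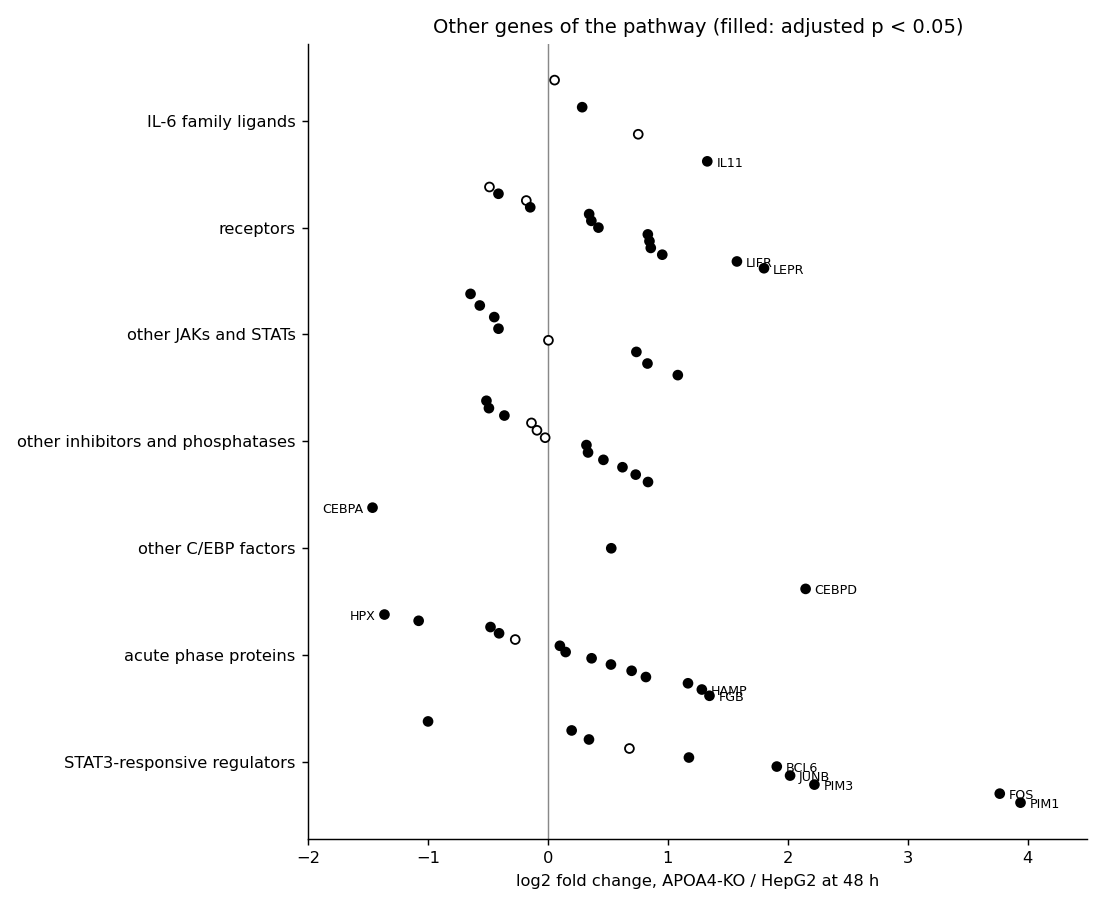
Log2 fold change of APOA4-KO against HepG2 at 48 h for 64 of the 70 tested genes of the pathway list, by role, with filled points at an adjusted p under 0.05; CNTF, IL6, LBP, SAA1, SAA2 and STAT4, with a mean under 0.1 CPM in at least 1 group, are left out. PIM1 and FOS lie farthest to the right, at 3.94 and 3.77, and CEBPA farthest to the left, at -1.46.

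Of 13 other receptors tested, 9 were higher and 2 lower in APOA4-KO at 48 h, beside 23.5% and 27.3% of all genes. The 2 lower were IL10RB (log2 fold change -0.41, SE 0.10, adjusted p = 0.001) and IFNAR1 (-0.15, SE 0.06, adjusted p = 0.036). With DESeq2 size factors, IFNAR1 lost its call (adjusted p = 0.168). LIFR, the partner of gp130 in the LIF receptor, was higher at 24 h (log2 fold change 1.79, SE 0.09, adjusted p = 3.4e-12) and at 48 h (1.58, SE 0.09, adjusted p = 1.3e-11). It was higher before hypoxia as well (0.78, SE 0.08, adjusted p = 8.2e-07). LEPR, the leptin receptor, had 121, 305 and 149 counts in APOA4-KO at 48 h and 73, 30 and 99 in HepG2 (1.80, SE 0.46, adjusted p = 0.003). Its libraries differed widely within both groups, and on the log2(FPKM + 1) scale the difference was 0.17. OSMR, the partner of gp130 for oncostatin M, rose in HepG2 from 87.0 ± 4.35 to 124 ± 0.389 CPM by 48 h (0.51, SE 0.03, adjusted p = 6.1e-10). At 24 h it was at 308 ± 2.85 CPM in APOA4-KO against 124 ± 1.89 CPM in HepG2 (1.31, SE 0.03, adjusted p = 3.0e-16), and it was higher there at 0 h too (0.37, SE 0.03, adjusted p = 4.0e-08). IL22RA1, a receptor chain for IL-22, fell in HepG2 by 0.44 on the log2 scale to 48 h (SE 0.05, adjusted p = 4.2e-06) and was lower in APOA4-KO at 24 h (-0.49, SE 0.05, adjusted p = 3.1e-07) but higher at 48 h (0.85, SE 0.05, adjusted p = 1.3e-10).

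Among the 9 other kinases and STATs, 3 were higher and 4 lower at 48 h, beside 23.5% and 27.3% of all genes. JAK3 was higher in APOA4-KO (log2 fold change 1.08, SE 0.08, adjusted p = 1.3e-09), as was STAT5A (0.83, SE 0.10, adjusted p = 1.0e-06). STAT2, which acts in the interferon response (-0.65, SE 0.05, adjusted p = 4.0e-09), and the kinase TYK2 (-0.57, SE 0.03, adjusted p = 3.9e-11) were lower. TYK2 was also lower at 24 h (-0.79, SE 0.03, adjusted p = 5.5e-13). At 0 h JAK3 (0.91, SE 0.08, adjusted p = 8.0e-08) and STAT5A (0.48, SE 0.10, adjusted p = 9.9e-04) were higher and TYK2 lower (-0.19, SE 0.03, adjusted p = 1.6e-04). Of 12 other inhibitors and phosphatases, 6 were higher and 3 lower at 48 h, beside the same shares of all genes. SOCS6, a further SOCS gene (0.83, SE 0.08, adjusted p = 4.2e-08), and the phosphatase PTPN2 (0.73, SE 0.07, adjusted p = 9.2e-08) were higher, and SOCS4 was lower (-0.51, SE 0.14, adjusted p = 0.004). PIAS2, a SUMO ligase of the PIAS family, was higher in APOA4-KO at 0 h (0.49, SE 0.10, adjusted p = 7.7e-04) and 24 h (1.58, SE 0.10, adjusted p = 8.9e-11) and lower at 48 h (-0.49, SE 0.09, adjusted p = 2.1e-04). In HepG2 it rose by 1.60 to 48 h (SE 0.10, adjusted p = 4.8e-10).

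Of the ligands described here, IL6 and IL11 were at low levels, while LIF was higher. IL6 had 46, 85 and 48 counts in HepG2 at 0 h, 0, 4 and 0 at 24 h, and 0 in all 3 libraries at 48 h. In APOA4-KO the libraries held 236, 284 and 199 counts before hypoxia, 224, 29 and 47 after 24 h, and 43, 36 and 36 after 48 h. IL6 thus had its highest counts at 0 h in both lines, and APOA4-KO 24 h replicate 1 overlapped the 0 h libraries of its line. IL11 was higher in APOA4-KO at 24 h (log2 fold change 2.40, SE 0.42, adjusted p = 9.0e-05) and at 48 h (1.33, SE 0.41, adjusted p = 0.010), with 1.85 ± 0.401 against 0.735 ± 0.0428 CPM at 48 h. LIF was lower in APOA4-KO at 24 h, at 11.6 ± 1.09 against 26.4 ± 0.624 CPM (-1.18, SE 0.06, adjusted p = 1.6e-11), and rose in HepG2 by 0.39 to 48 h (SE 0.06, adjusted p = 9.5e-05). It was also lower in APOA4-KO at 0 h (-0.76, SE 0.06, adjusted p = 3.2e-08), but higher at 48 h (0.29, SE 0.06, adjusted p = 7.7e-04).

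Over the 18 libraries, the log2 CPM of SOCS3 ran most closely with that of DUSP1, TRIB1, FZD5, CDR2 and EXT1 among 8560 genes with a mean of at least 10 CPM. The Pearson correlations were 0.989, 0.987, 0.985, 0.981 and 0.981, and since the libraries fall into 6 groups and APOA4-KO at 48 h stands apart, they are given as a description. DUSP1, a phosphatase of MAP kinases, had means of 18.6 ± 1.12, 34.2 ± 1.08 and 19.8 ± 0.464 CPM in HepG2 in order of time, and of 17.5 ± 2.15, 45.9 ± 3.72 and 164 ± 8.32 CPM in APOA4-KO. TRIB1, a pseudokinase that promotes the degradation of C/EBP factors, went from 44.3 ± 0.812 to 74.8 ± 5.52 and 127 ± 2.09 CPM in APOA4-KO. In HepG2, TRIB1 was at 47.3 ± 1.104, 62.6 ± 3.22 and 44.3 ± 1.88 CPM, so both had their highest HepG2 levels at 24 h. Within the 9 genes, SOCS3 ran closest with IL6R (0.854) and JAK1 (0.745), and the highest correlation of any pair was that of IL6ST with JAK1 (0.882).

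The spread within groups differed widely among the 9 genes. On the log2 scale it was 0.37 for SOCS1, 0.42 for SOCS2 and 0.36 for CEBPB (SD), and 0.18 for SOCS3 and 0.19 for CISH, but 0.02 for STAT3, 0.03 for JAK1, 0.04 for IL6ST and 0.07 for IL6R. SOCS1 and CEBPB deviated together from their group means, with a correlation of 0.838 over the 18 libraries. In the same libraries, SOCS1 and SOCS2 had a correlation of 0.648. The part of this shared spread in the results on SOCS1, SOCS2 and CEBPB was not tested.

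**Figure D5:**
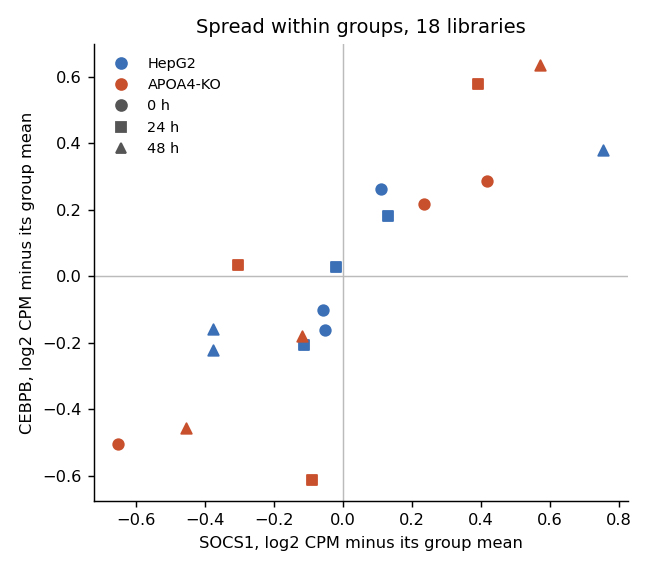
Log2 CPM of CEBPB minus the mean of its group against the same for SOCS1, with a point for each of the 18 libraries (blue HepG2, red APOA4-KO; circles 0 h, squares 24 h, triangles 48 h). Libraries high in SOCS1 for their group are high in CEBPB, with a Pearson correlation of 0.838.

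Markers of other cell types were summed by group. For monocytes and macrophages, the summed level of the 6 genes was 1080 to 1092 CPM in HepG2 at 0 h, 2059 to 2119 CPM at 24 h and 1191 to 1243 CPM at 48 h, and 1576 to 1617, 2304 to 2492 and 2780 to 2850 CPM in APOA4-KO. The sum was highest in APOA4-KO at 48 h, and it was higher in APOA4-KO than in HepG2 at 0 h as well. Nearly all of it was LYZ, at 1037 to 2771 CPM. CD68 was at 27.3 to 73.4 CPM, CD14 at 4.05 to 8.53 CPM and PTPRC at up to 7.81 CPM. CSF1R did not pass 0.415 CPM and ITGAM 1.22 CPM, and PTPRC, CSF1R and ITGAM were at 0 in at least 1 library. The 6 fibroblast and endothelial markers summed to 40.0 to 69.0 CPM over all groups. The part of these genes in the results was not tested.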

How the data were processed

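Poly(A) RNA of 18 HepG2 and APOA4-KO libraries was sequenced by the authors, who trimmed reads with fastp and aligned them with HISAT2 to GRCh38. The authors deposited a table of raw counts per gene and a table of FPKM values. The paper's methods name featureCounts and the submitters' notes StringTie, so the counter is unresolved. Groups were read from the labels. Counts were scaled by TMM and fitted over all 6 groups with the quasi-likelihood test of edgeR 4.0.16 after filterByExpr (19743 genes), with adjusted p by Benjamini-Hochberg and a limit of 0.05, and the fit was tested on simulated data. CPM values are counts per 1e6 of the library size after TMM scaling. Alternatives were other scalings, no filter, a replicate block, DESeq2 1.42.0, limma 3.58.1 on log2(FPKM + 1) and log2(FPKM + 0.1), and leaving out each library. Pathway genes described beyond the members were drawn from a set made for each role in 3 comparisons (HepG2 at 48 h against 0 h, and the lines at 24 h and 48 h). The set held up to 2 with the largest called change in each direction and at least 10 counts in every library of the higher group. Not every gene of that set is described. The 5 genes most correlated with SOCS3 are named as well. The members and lists were chosen with earlier results of these data known. Same-numbered libraries had correlations of -0.144 to 0.051 over 45 pairs, so replicate numbers were not taken as pairs. The 18 pairs of libraries within groups differed by more than counting noise (chi-square per gene 11.3 to 27.6).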

Additional observations from a re-analysis of the deposited data

Results flagged for a closer look

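The change under hypoxia differed between the lines for 5 of 9 genes at 24 h, beside 32.2% of all tested genes. At 48 h it differed for 5 of the 8 genes other than SOCS3, beside 36.4% of all tested genes. The comparison at 48 h includes the change in APOA4-KO that by itself is described without a test. These calls are from a test of the difference itself, with values as APOA4-KO minus HepG2 on the log2 scale. At 24 h the differences were 0.89 for SOCS3, -0.75 for CISH, 0.51 for STAT3, 0.64 for IL6ST and 0.76 for JAK1. At 48 h they were 0.77 for STAT3, 1.23 for IL6R, 0.16 for IL6ST, 0.56 for JAK1 and 1.32 for CEBPB. Those of CISH at 24 h, IL6ST at 48 h and CEBPB at 48 h lost their call in some refits.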

How the results depend on the processing

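SOCS3 kept its direction and calls at 24 h in every refit. Its undetected differences at 0 h and in HepG2 at 48 h stayed uncalled. The log2 fold change of SOCS3 in APOA4-KO against HepG2 at 48 h was 3.85 with library totals alone, 2.57 with log2(FPKM + 1) and 3.64 with log2(FPKM + 0.1), and from 0 h to 48 h in APOA4-KO it was 3.74, 2.53 and 3.55. The difference in change at 48 h was 2.60 with log2(FPKM + 1). A larger pseudocount shrinks changes of low genes by construction. Leaving out 1 library gave 3.95 to 4.04, 3.86 to 3.97 and 3.798 to 4.29 for these 3 values. The difference in change of IL6ST at 48 h reversed to -0.0113 with library totals alone (adjusted p = 0.915), to -0.0085 with log2(FPKM + 1) and to -0.0117 with log2(FPKM + 0.1), and the cause was not tested. That of CEBPB lost its call with log2(FPKM + 1) (0.99, adjusted p = 0.139) and log2(FPKM + 0.1) (1.11, adjusted p = 0.122). CISH at 24 h lost its line difference and its difference in change under 4 of 7 settings. The line difference at 48 h was 0.19 to 0.40 for STAT3, 0.18 to 0.41 for JAK1 and 0.17 to 0.39 for IL6ST. These ranges are over the 7 settings, and every call was kept. The untested change from 0 h to 48 h in APOA4-KO shrank with library totals alone and on both FPKM scales. It was then 0.35 to 0.37 for STAT3, 0.39 to 0.46 for JAK1, 0.61 to 0.75 for IL6R and 0.24 to 0.26 for IL6ST. IL6R in HepG2 at 24 h lost its call with DESeq2 size factors (adjusted p = 0.061). With the replicate number as a block, no call of the 9 genes changed, 35 of the tests of the other 8 members were called, and SOCS3 was at 0.79 at 24 h and 4.01 at 48 h between the lines. SOCS1, SOCS2 and CEBPB had the widest spread between libraries of a group among the 9 genes.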

Other observations

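The shared spread of SOCS1 and CEBPB within groups extended to other genes, which were picked after their values were seen. Of 8559 genes with a mean of at least 10 CPM, 154 (1.80%) had a correlation of at least 0.7 with the deviations of CEBPB from its group means over the 18 libraries, led by the apolipoprotein gene APOE at 0.98, H1-10, a linker histone, at 0.958 and HNRNPAB, an RNA-binding protein, at 0.954. For SOCS1 there were 126 of 8560 (1.47%), led by PCSK1N and C8orf82 at 0.95, and for SOCS3 28 (0.327%). A measure of GC-rich against GC-poor genes had a correlation of 0.01 with the deviations of SOCS1 and 0.045 with those of CEBPB. All points come from the same libraries, and these values are a description.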
